A study of Mus musculus with 12 samples.

Results

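Genes near which human variants alter the risk of Alzheimer disease fall into a few cellular processes, and the 10 mouse genes described here are the orthologs assigned to endocytosis and cell adhesion: Bin1, Picalm, Sorl1, Abi3, Cd2ap, Ptk2b, Rin3, Fermt2, Cass4 and Abca7. They were taken by symbol from the deposited gene tables, and all 10 were found among the 36528 genes listed. RNA was sequenced from Cd11b-positive myeloid cells sorted from the brains of male mice aged 6 months. Of the 12 libraries, 6 have the genotype hMAPT-P301S, that is, human MAPT (tau) carrying P301S, a change found in inherited frontotemporal dementia (P301S), and 6 are non-transgenic littermates (NonTg). The sources used here give neither the promoter that drives the transgene nor the strain, and do not say whether a library is 1 animal or a pool, so the p-values reflect only how far these samples spread. The comparison asks how the expression of these genes in brain myeloid cells differs between mice with and without mutant tau.

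In clathrin-mediated endocytosis, adaptor proteins gather cargo and clathrin on the plasma membrane, proteins with curved BAR domains bend it, and dynamin cuts the vesicle free. Rab5 then marks the early endosome, from which sorting receptors and the retromer complex return cargo to the Golgi or the surface. Adhesion runs through integrins, which kindlins and talins switch on and which signal through focal adhesion kinases, Cas scaffolds and the actin-nucleating WAVE complex. In microglia these same routes serve the uptake of debris and the movement of cell processes.

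Total counts per library ranged from 1196069 to 4145069. All 10 microglial markers had counts in all 12 libraries, and their summed level ranged from 9507 to 12737 CPM (read counts relative to the library total, scaled by edgeR's TMM factors) in NonTg and from 4500 to 6779 CPM in P301S, with 5 of the 10 called lower. In such bulk libraries fewer cells of a type and less RNA per cell cannot be told apart. Itgam, the gene of the Cd11b protein used for sorting, measured 1869 ± 286 CPM in NonTg and 1250 ± 135 in P301S (SD, n = 6 each, adjusted p = 0.0264 with edgeR, a call lost in 10 of 21 alternative settings). Mapt, the mouse's own tau gene, measured 6.31 ± 3.33 and 5.21 ± 5.22 CPM; transgene reads were not used here, and the labels therefore have no check from this gene. Mitochondrial genes took 10.0% to 19.2% of counts in NonTg and 14.97% to 32.1% in P301S, and Malat1, a nuclear RNA, took 12.4% to 19.2% and 7.82% to 10.6%. Whether these library measures and the lower microglial marker level have a part in any difference below was not tested.

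None of the 10 genes was called different between the genotypes with edgeR. Among the 9 that passed the filter on low counts, 0 rose and 0 fell (edgeR quasi-likelihood, adjusted p below 0.05), where 388 of 10022 genes tested (3.87%) were called, 2.37% higher and 1.5% lower. At an unadjusted p under 0.05 there were 3, namely Cass4, Cd2ap and Sorl1, where 15.8% of all genes tested reached that level. DESeq2 called 1, Cass4, as lower, where it called 7.4% of genes in either direction, and limma voom called 0. The P301S libraries lay wholly below the NonTg libraries for 2 genes, Cd2ap and Cass4, and wholly above for none, where the groups did not overlap for 3.28% of genes tested, 2.24% with P301S above and 1.05% with P301S below. The estimate was above 0 for 3 of the 9 genes and for 48.8% of all genes tested. The median log2 fold change (P301S minus NonTg) was -0.17 over the 9 genes and -0.02 over all genes tested. Summed, the 10 genes made up 0.106% to 0.230% of a library's counts.

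**Figure D1:**
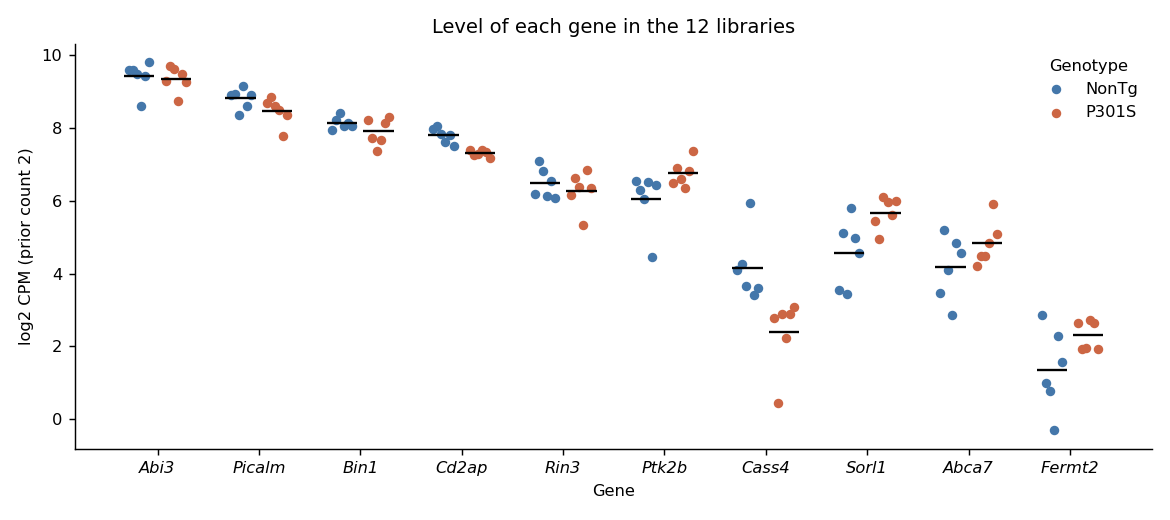
Log2 CPM (with a prior count of 2) of each of the 10 genes in each library, blue for NonTg and orange for P301S. Each point is 1 library and each bar the mean of 6; the points of the genotypes do not overlap for Cd2ap and Cass4, and they overlap for the other 8 genes.

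The sequences before the transcription start are shown for the 3 genes with the smallest p-values, each as the 250 bases before a transcript start that RefSeq lists on GRCm38.p6, read 5′ to 3′ on the strand of the gene. Such a start need not be the outermost end of a gene: the Cd2ap stretch lies wholly inside the annotated span of the gene, which on this strand begins at 42876707. Capitals mark letter matches, on either strand, to GGAAGT, the core bound by ETS factors such as PU.1 of myeloid cells, or to CACGTG, the E-box bound by lysosomal regulators of the MiT/TFE family. The Cass4 stretch lies on the plus strand of chromosome 2, the Cd2ap stretch on the minus strand of chromosome 17, and the Sorl1 stretch, at the more upstream of its 2 listed starts, on the minus strand of chromosome 9.
Cass4, chr2:172393394-172393643: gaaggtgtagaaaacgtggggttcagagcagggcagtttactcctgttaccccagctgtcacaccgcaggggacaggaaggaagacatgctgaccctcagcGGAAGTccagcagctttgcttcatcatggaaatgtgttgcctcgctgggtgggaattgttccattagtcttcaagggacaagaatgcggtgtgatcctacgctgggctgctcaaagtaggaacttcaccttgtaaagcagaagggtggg
Cd2ap, chr17:42876425-42876674: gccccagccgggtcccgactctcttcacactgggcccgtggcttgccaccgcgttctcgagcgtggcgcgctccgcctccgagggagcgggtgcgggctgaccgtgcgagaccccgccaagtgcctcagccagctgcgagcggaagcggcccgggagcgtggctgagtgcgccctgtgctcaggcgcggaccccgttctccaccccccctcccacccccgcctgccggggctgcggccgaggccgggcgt
Sorl1, chr9:42124298-42124547: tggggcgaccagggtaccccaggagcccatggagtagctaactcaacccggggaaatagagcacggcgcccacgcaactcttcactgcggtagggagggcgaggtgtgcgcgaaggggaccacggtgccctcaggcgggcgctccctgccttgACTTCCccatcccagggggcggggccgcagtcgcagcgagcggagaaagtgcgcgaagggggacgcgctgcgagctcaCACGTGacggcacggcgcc
The Cass4 stretch held GGAAGT 1 time, beginning 149 bases before the start. The Sorl1 stretch held it 1 time on the opposite strand, 97 bases before the start, and CACGTG 1 time, 19 bases before it. The Cd2ap stretch held neither. Among 32851 stretches of 250 bases before annotated starts, 19.7% held GGAAGT and 6.02% held CACGTG, and among the 9857 of genes tested here 23.6% and 8.36% did. The site of AP-1 factors, TGACTCA, is in 4.46% of all and 2.97% of those of tested genes, and in none of these 3. Of the other genes whose entries were read, Picalm held CACGTG 1 time and no GGAAGT. Abca7, Rin3 (2 starts), Fermt2 and the other listed start of Sorl1 held none of the 3 motifs. These are matches of letters, which do not show binding.

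Cass4 encodes a scaffold of the Cas family, which docks at focal adhesions and carries binding sites for adhesion kinases and adaptors. The gene lies on chromosome 2 from 172393644 to 172433752 of GRCm38. Its level was low, with between 2 and 84 reads per library. NonTg libraries ranged from 9.74 CPM through a median of 14.1 to 59.9, and P301S libraries from 0.542 through 6.37 to 7.61 CPM. All 6 P301S libraries lay below the lowest NonTg library, and the highest value, in NonTg 4, stood far above the next, 18.4 CPM in NonTg 2. The log2 fold change was -2.01 ± 0.68 (SE, adjusted p = 0.101 with edgeR, 95% interval -3.39 to -0.62), larger in size than that of 96.4% of genes tested. Without NonTg 4 the log2 fold change was -1.35 (adjusted p = 0.4165). DESeq2 called the gene (adjusted p = 0.02405) where it called 3.36% of genes lower, and over the 21 alternatives the adjusted p ranged from 0.02405 to 0.4165. On the deposited RPKM (reads relative to gene length and library size) plus 1 the difference was -0.68. NonTg 4 had 34.9 CPM of platelet markers, within the NonTg range of 23.9 to 99.6, and P301S libraries had 18.8 to 44.1. Most of that sum was Itgb3, while Itga2b had 2 reads and Ppbp 4 in all libraries together. The part of platelets in the Cass4 reads was not tested.

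Ptk2b encodes the focal adhesion-type kinase Pyk2, which calcium and integrins activate and which acts upstream of Cas scaffolds. NonTg libraries ranged from 21.1 CPM through a median of 81.7 to 91.3, and P301S libraries from 80.7 through 103.6 to 165 CPM. In 4 of 6 P301S libraries the value was above the NonTg maximum, and NonTg 5 stood apart at the low end. The log2 fold change was 0.60 ± 0.31 (SE, adjusted p = 0.362 with edgeR), with a 95% interval that reached from a fold of 0.972 to 2.37. It was 0.42 without NonTg 5 and 0.45 without P301S 6.

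Fermt2 encodes kindlin-2, the widely expressed kindlin that binds integrin tails and opens integrins together with talin. It had 104 reads in all libraries and did not pass the filter on low counts. Values ranged from 0 to 6.49 CPM in NonTg, with no read in NonTg 4, which allows up to 3 reads there by counting error, and from 2.98 to 5.81 in P301S. Fitted without a filter, the log2 fold change was 0.81 ± 1.26 (SE, adjusted p = 0.757 with edgeR). Its 95% interval reached from -1.65 to 3.28, so at this depth the reads are compatible with a fall or a rise anywhere within it. Astrocyte markers, a cell type in which kindlin-2 is known to be made, summed to 127 to 697 CPM in NonTg and 156 to 713 in P301S, with Slc1a2 the most abundant at 308 and 299 CPM. Of that list 1 of 6 tested genes passed, Gfap, which rose from 3.14 ± 2.23 to 19.8 ± 4.37 CPM (adjusted p = 0.0199 with edgeR), while 5 of the 8 had a lower mean in P301S. The endothelial list summed to 8.52 to 112 CPM and 34.2 to 83.2 CPM, while Cldn5, a defining marker, had no read in any library. Of that list 1 of 3 tested genes passed, Flt1, which rose from 4.30 ± 3.52 to 34.2 ± 22.6 CPM (adjusted p = 0.00559 with edgeR), while 5 of the 8 had a lower mean in P301S, among them Pecam1 (9.99 and 3.12 CPM) and Kdr (12.9 and 6.69 CPM). The part of such cells in the Fermt2 reads was not tested.

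Abi3 encodes a subunit of the WAVE complex, which activates Arp2/3 and so drives branched actin in microglial processes. It was the most abundant of the 10 genes per length, and on the CPM scale NonTg libraries ranged from 385 through a median of 736 to 886 and P301S libraries from 429 through 670 to 822. The ranges overlapped almost wholly. NonTg 4 at 385 CPM stood below the other NonTg libraries, which were at 683 or more. Its log2 fold change was -0.08 ± 0.20 (SE, adjusted p = 0.910 with edgeR), and its 95% interval covered folds from 0.715 to 1.25. Its sign turned without P301S 4 (0.038) and without NonTg 6 (0.0022).

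Cd2ap encodes an adaptor that links receptors and ubiquitin ligases of the Cbl family to actin capping protein and endocytic sorting. The gene lies on chromosome 17 from 42748887 to 42876707 of GRCm38. NonTg libraries ranged from 179 CPM through a median of 226 to 262, and P301S libraries from 142 through 157 to 167 CPM. All 6 P301S libraries lay below the lowest NonTg library, NonTg 6. The P301S values had the smallest relative spread of the 10 genes, with a coefficient of variation of 6.04% against 14.2% in NonTg. On the log2 scale the fold change was -0.50 ± 0.20 (SE, adjusted p = 0.191 with edgeR, 95% interval of the fold 0.528 to 0.942). The log2 fold change lay between -0.56 and -0.43 in all 21 alternatives, with adjusted p-values between 0.0740 and 0.367, so the gene was called in none of them. The libraries thus separated fully by genotype while the size of the difference was moderate, since 53.5% of genes tested had a smaller or equal one. The summed microglial markers were also lower in all 6 P301S libraries than in any NonTg library. Both measures separate by genotype, so their match by library adds no information, and a link between them was not tested.

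**Figure D2:**
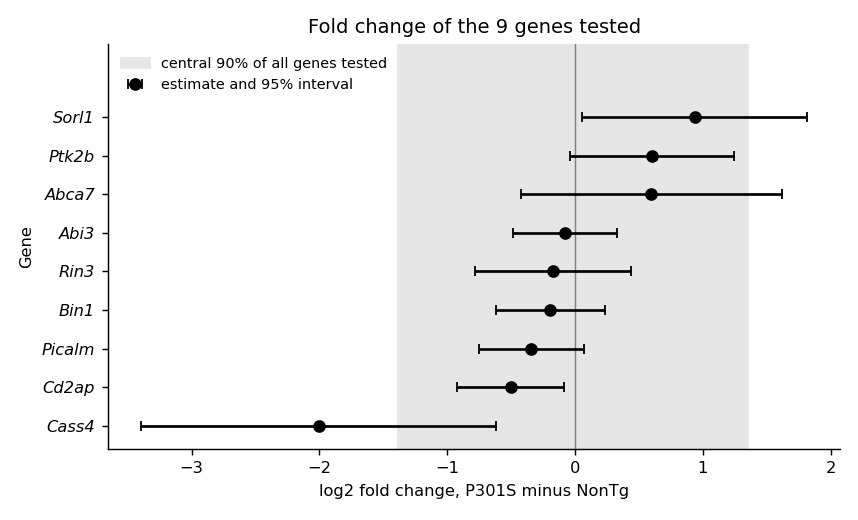
Log2 fold change (P301S minus NonTg) of the 9 genes tested, as points with 95% intervals from edgeR. The grey band holds the central 90% of all 10022 genes tested (-1.39 to 1.36), and the Cass4 estimate at -2.01 lies outside it.

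Bin1 and Picalm act on the forming vesicle. Bin1 encodes amphiphysin II, a BAR protein that bends membrane and binds dynamin, and lies on chromosome 18. NonTg libraries ranged from 244 CPM through a median of 270 to 337, and P301S libraries from 163 through 245 to 316 CPM. In 3 of 6 P301S libraries, numbers 2, 3 and 4, Bin1 was below the lowest NonTg library, and in the other 3 it was inside the NonTg range. Fitted by edgeR, the log2 fold change was -0.19 ± 0.21 (SE, adjusted p = 0.743), with a 95% interval of the fold from 0.651 to 1.17. Markers of oligodendrocytes, which are known to make much Bin1, summed to 185 to 365 CPM in NonTg and 184 to 503 in P301S. The library with 503 CPM of these markers, P301S 4, had 202 CPM of Bin1, among the lower values; their part in the Bin1 reads was not tested.

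Picalm encodes a clathrin assembly protein that recruits clathrin to membrane phosphoinositides and sets vesicle size. NonTg libraries ranged from 323 CPM through a median of 480 to 562, and P301S libraries from 216 through 373 to 454 CPM. The ranges overlapped, with P301S 5 alone below the lowest NonTg library. Its log2 fold change was -0.34 ± 0.20 (SE, adjusted p = 0.437 with edgeR, 95% interval of the fold 0.593 to 1.05). A decrease to under 0.59 of the NonTg level or an increase above 1.05 times it lay outside that interval.

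Rin3 and Sorl1 act after the vesicle has formed. Rin3 encodes an exchange factor that loads Rab5 with GTP, and measured 66.8 to 135 CPM in NonTg and 39.4 to 113 in P301S, with medians of 82.2 and 81.7. For this gene the log2 fold change was -0.17 ± 0.30 (SE, adjusted p = 0.856 with edgeR). Sorl1 encodes the sorting receptor SorLA, which carries the amyloid precursor protein out of endosomes with the help of retromer. Sorl1 lies on chromosome 9 from 41964709 to 42124297 of GRCm38. NonTg libraries ranged from 10.1 CPM through a median of 26.8 to 54.9, and P301S libraries from 30.1 through 54.8 to 67.8 CPM. In 3 of 6 P301S libraries Sorl1 was above the NonTg maximum, which was again NonTg 4, and only P301S 2 was below the second highest NonTg value of 33.7 CPM. With edgeR the log2 fold change was 0.94 ± 0.43 (SE, adjusted p = 0.276, 95% interval of the fold 1.04 to 3.52), and it ranged from 0.54 to 1.27 over the alternatives without a call.

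Abca7 encodes an ATP-driven transporter that moves phospholipid to the outer membrane leaflet and has been tied to phagocytosis. It measured 6.41 to 36.1 CPM in NonTg, with a median of 19.6, and 17.7 to 59.6 in P301S, with a median of 24.7. Only P301S 5 lay above the NonTg range. Its log2 fold change was 0.60 ± 0.50 (SE, adjusted p = 0.642 with edgeR), and 0.29 without P301S 5. Its biological coefficient of variation was 0.59, and those of Cass4 and Sorl1 were 0.75 and 0.51, against 0.29 for Cd2ap and 0.30 for Bin1, Picalm and Abi3, so the intervals of the low genes are the wider.

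Levels of different genes were compared on the deposited RPKM, which divides by gene length. In NonTg the order by mean ran from Abi3 (33.1 ± 7.84, SD, n = 6) through Picalm (23.7 ± 4.33), Bin1 (23.5 ± 2.86), Cd2ap (7.99 ± 1.16), Rin3 (5.06 ± 1.54), Ptk2b (3.69 ± 1.36), Cass4 (1.24 ± 1.13), Sorl1 (0.880 ± 0.542) and Abca7 (0.652 ± 0.362) to Fermt2 (0.143 ± 0.141). The first 3 thus stood at least at the 97.7th percentile of tested genes by mean RPKM over all libraries, while Cass4 was at the 25.1st and Abca7 at the 27.2nd. In P301S the order was Abi3 (31.4 ± 6.48), Bin1 (20.5 ± 5.07), Picalm (18.7 ± 4.198), Cd2ap (5.64 ± 0.377), Ptk2b (5.63 ± 1.54), Rin3 (4.47 ± 1.40), Sorl1 (1.69 ± 0.473), Abca7 (0.995 ± 0.514), Cass4 (0.307 ± 0.152) and Fermt2 (0.249 ± 0.0837). Neighbours were separated without overlap only between Bin1 and Cd2ap in NonTg and, in P301S, between Picalm and Cd2ap, Rin3 and Sorl1, and Abca7 and Cass4. Cass4 moved from place 7 to place 9, and Picalm and Bin1, which differed by 0.238 ± 6.76 RPKM in NonTg, exchanged places, as did Rin3 and Ptk2b. In NonTg Cass4, Sorl1 and Abca7 could not be put in an order, since Cass4 was above Sorl1, and Sorl1 above Abca7, in 3 of 6 libraries.

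Each of the 10 genes belongs to a family, and in 4 families a relative was the more abundant gene in at least 11 of 12 libraries. Bin2, a BAR protein of blood cells, measured 69.2 ± 24.0 RPKM in NonTg and 54.1 ± 17.4 in P301S (SD, n = 6 each) and was above Bin1 in 12 of 12 libraries. Fermt3, the kindlin of blood cells, at 4.15 ± 2.91 and 5.47 ± 1.58 RPKM, and Abca1, the cholesterol exporter, at 7.07 ± 2.00 and 11.2 ± 1.28 RPKM, were likewise above Fermt2 and Abca7 in 12 of 12. Sort1, encoding the sorting receptor sortilin, was above Sorl1 in 11 of 12 libraries. Rin2 was above Rin3, and Abca2 and Abca3 above Abca7, in 8 of 12 each, and Fermt1 was above Fermt2 in 6 of 12. Fermt1 did not pass the filter on low counts, and none of the others passed the test, with log2 fold changes of -0.35 ± 0.22 for Bin2, 0.41 ± 0.39 for Fermt3, 0.66 ± 0.20 for Abca1 (adjusted p = 0.0673 with edgeR, called in 4 of 21 alternatives), -0.35 ± 0.28 for Sort1, -0.25 ± 0.26 for Rin2, 1.07 ± 0.43 for Abca2 and 0.20 ± 0.51 for Abca3 (SE).

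In 3 families the risk ortholog stood above its relatives in every library. Picalm was above Snap91, its relative of neurons (0.544 ± 0.822 and 0.185 ± 0.219 RPKM), Abi3 was above Abi1 and Abi2, and Ptk2b was above Ptk2, which encodes focal adhesion kinase (0.807 ± 0.663 and 0.439 ± 0.151 RPKM), in all 12 libraries. Cass4 was above Bcar1 and Efs in all 12, and Nedd9 was above Cass4 in 5 of 12. Cd2ap and its close relative Sh3kbp1, which encodes the adaptor CIN85, were near each other. Sh3kbp1 measured 7.29 ± 2.19 RPKM in NonTg and 10.4 ± 2.39 in P301S, with a log2 fold change of 0.51 ± 0.23 (SE, adjusted p = 0.256 with edgeR), opposite in sign to the -0.50 of Cd2ap. It was above Cd2ap in 8 of 12 libraries. The unequal change of these relatives was not tested.

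**Figure D3:**
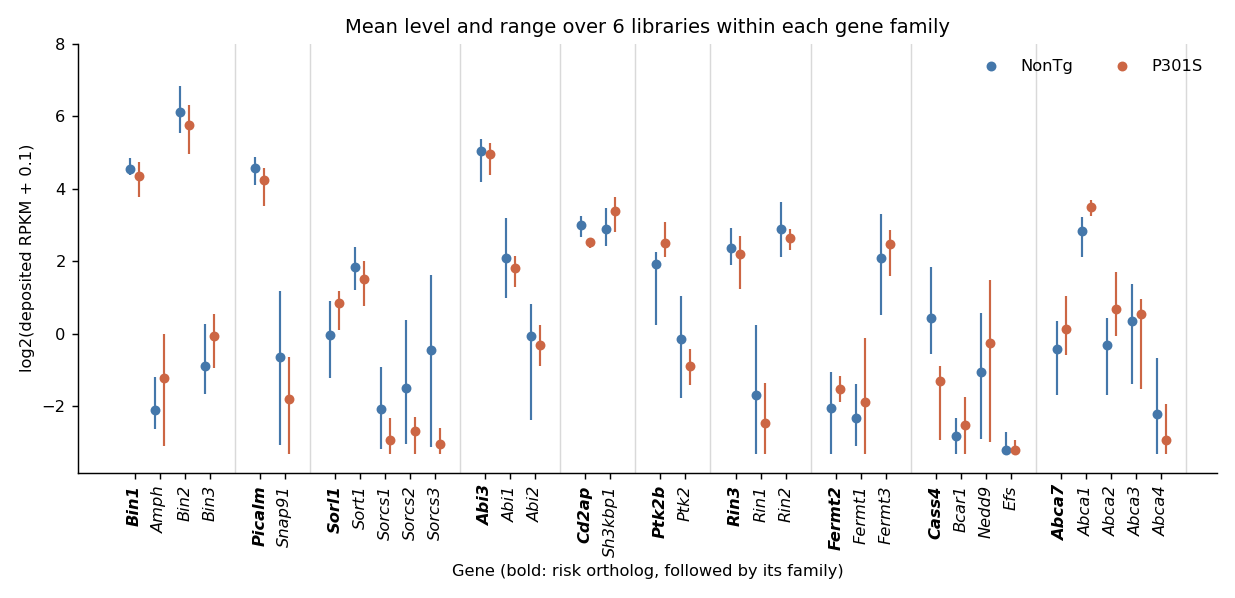
Deposited RPKM on a log2 scale (plus 0.1) for each of the 10 genes, in bold, followed by its relatives, blue for NonTg and orange for P301S. Points are means of 6 libraries and lines run from the lowest to the highest library; Bin2, Fermt3 and Abca1 lie above Bin1, Fermt2 and Abca7.

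Genes that act with the 10 were read from 9 lists of 159 genes, of which 125 passed the filter. Of these, 1 rose and 2 fell with edgeR, together 2.40%, where 3.87% of all genes tested were called. At an unadjusted p under 0.05 there were 16 higher and 6 lower, where 804 and 776 of the 10022 genes tested were, together 15.8%. The median log2 fold change of the 125 was 0.12. It was above 0 for 72 of them and for 48.8% of all genes tested. DESeq2 called 6 higher and 2 lower, where it called 7.4% of all genes. Single partner genes were followed through the alternatives only for up to 4 per list, those with the smallest p. Among these, leaving out 1 library brought 4 further genes past the threshold: Clta without P301S 2 (adjusted p = 0.0425), Arpc1b without P301S 2 (0.0250) or NonTg 5, Abca1 without NonTg 6 (0.0486) or P301S 4, and Pacsin1 without NonTg 2. Synj2, encoding synaptojanin 2, a lipid phosphatase that strips the coat from vesicles, rose from 33.6 ± 14.6 to 94.3 ± 15.5 CPM (SD, n = 6 each, log2 fold change 1.48 ± 0.33, SE, adjusted p = 0.00797). Its NonTg libraries reached 58.4 CPM at most and its P301S libraries 72.9 at least, and it was called in all 21 alternatives. Pik3r1, encoding the regulatory subunit p85 of phosphoinositide 3-kinase, which binds Cd2ap, fell from 416 ± 28.8 to 236 ± 61.9 CPM (log2 difference -0.82 ± 0.20, SE, with edgeR's adjusted p = 0.0138), a call lost without P301S 6 (adjusted p = 0.0538) and without a filter on low counts (0.0609). Elmo1, whose protein activates Rac with Dock partners in engulfment and migration, fell from 557 ± 147 to 289 ± 82.6 CPM (log2 difference -0.95 ± 0.22, SE, with edgeR's adjusted p = 0.00995), with overlapping ranges, and was called in all 21 alternatives.

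By list, in the clathrin coat and its adaptors 1 of 23 tested genes rose (Synj2) and 0 fell, with a median log2 fold change of 0.18. Clta, a clathrin light chain gene, measured 46.0 ± 16.2 and 105 ± 69.0 CPM (adjusted p = 0.0734), Gak, an uncoating kinase gene, had a log2 fold change of 0.68 ± 0.26, and Itsn1, an endocytic scaffold gene, one of 0.77 ± 0.33. Of 13 BAR protein and dynamin genes none passed (median -0.31). A log2 fold change above 0 was found for 3 of the 13, where 48.8% of all genes tested had one. Fnbp1 measured 624.8 ± 142 and 468 ± 66.2 CPM, and Pacsin1, at 5.97 ± 7.00 and 21.9 ± 10.6 CPM, was called without NonTg 2 (adjusted p = 0.0252). Of 16 sorting receptor and retromer genes none passed (median 0.11). Lrpap1, a chaperone gene of lipoprotein receptors, measured 14.8 ± 6.11 and 36.5 ± 10.5 CPM without overlap (adjusted p = 0.115), Lrp1, a large endocytic receptor gene, had a log2 fold change of 0.45 ± 0.19, and Snx6, a sorting nexin gene, measured 44.0 ± 22.7 and 16.8 ± 11.5 CPM (adjusted p = 0.141). Of 14 Rab5 genes none passed (median 0.27), and 10 of the 14 had a log2 fold change above 0. Eea1, the early endosome tether gene, measured 314 ± 44.0 and 452 ± 224 CPM.

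Of 18 WAVE and Arp2/3 genes none passed (median 0.05), and 9 of the 18 had a log2 fold change above 0. Arpc1b measured 49.6 ± 21.5 and 110 ± 43.5 CPM and Arpc2 146 ± 64.4 and 87.0 ± 18.3 CPM, with log2 fold changes of 1.15 ± 0.35 and -0.74 ± 0.28 (adjusted p = 0.0607 and 0.160 with edgeR), so subunits of the same complex had estimates of opposite sign. Among 6 tested Cd2ap partners 1 fell (Pik3r1), and among 10 genes of focal adhesion kinase and Cas signalling 1 fell (Elmo1), with Pxn, the paxillin gene, at -0.68 ± 0.38. Of 18 kindlin, talin and integrin-linked genes none passed (median 0.25), and 12 of the 18 had a log2 fold change above 0. Itgb2, encoding the beta 2 chain that pairs with Cd11b, measured 106 ± 17.1 and 187 ± 55.6 CPM without overlap (log2 fold change 0.82 ± 0.24, adjusted p = 0.0531), and Itgb5 191 ± 53.2 and 309 ± 70.4 CPM. Of 7 lipid transporter genes none passed, with Abca1 nearest to the threshold and Abca9, at 575 ± 201 and 391 ± 144 CPM, estimated in the other direction.

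**Figure D4:**
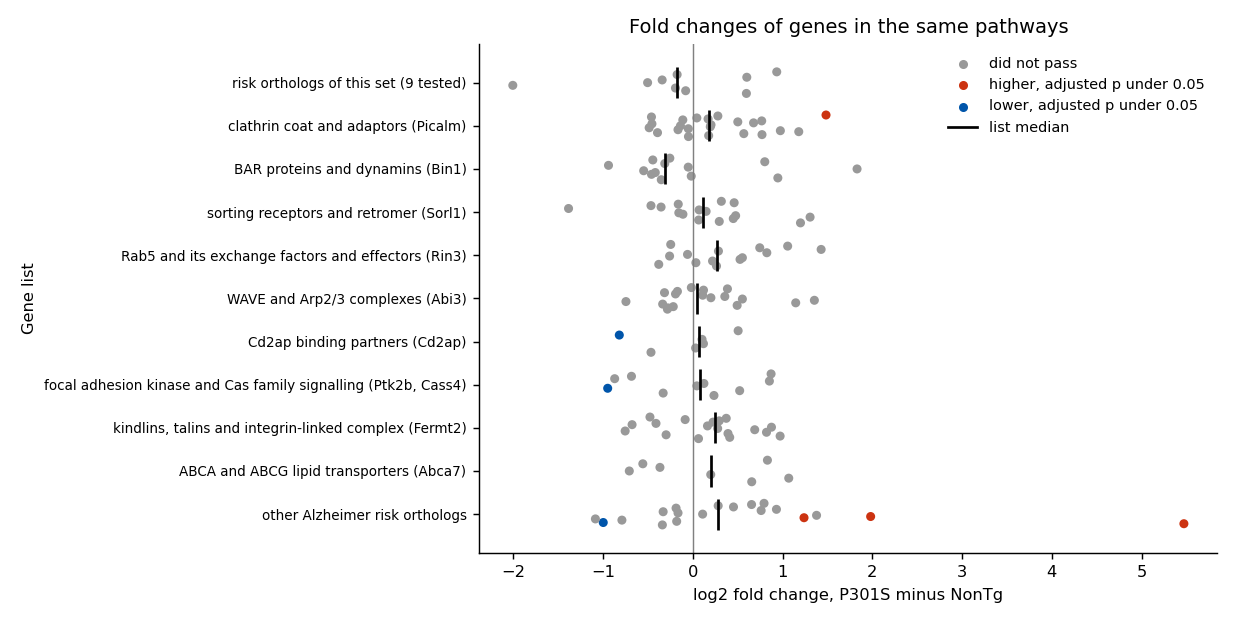
Log2 fold change (P301S minus NonTg) of every tested gene in the 10 risk orthologs, the 9 lists of partner genes and the other Alzheimer risk orthologs; bars mark list medians. Coloured points passed at an adjusted p under 0.05 with edgeR (3 among the partner genes and 4 among the other risk orthologs), and none of the 9 risk orthologs at the top did.

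Alzheimer risk orthologs outside endocytosis and adhesion are given for comparison. Of 26 on that list 19 were tested, of which 3 rose and 1 fell, where 2.37% of all genes tested were called higher and 1.5% lower. Apoe, the lipid carrier gene (log2 fold change 5.47 ± 0.30, SE), the progranulin gene Grn (1.24 ± 0.21) and the class II histocompatibility gene H2-Ab1 (1.98 ± 0.44) rose, and Cd33, encoding an inhibitory sialic acid receptor, fell from 854 ± 149 to 427 ± 95.02 CPM (-0.998 ± 0.18). All 4 passed in all 21 alternatives. Of the 19 tested, 3 had all P301S libraries above the NonTg libraries and 1 had all below, where 2.24% and 1.05% of all genes tested did. These were the same 4 genes. Genes picked by the test tend to have groups that do not overlap, so this adds no support to the calls. The median over the 19 was 0.28. Other members did not pass. Nearest to the threshold were Trem2 (0.65 ± 0.27, adjusted p = 0.192 with edgeR) and Cr1l (-1.09 ± 0.50, adjusted p = 0.274), both with an unadjusted p under 0.05. Further from it were the phosphatase gene Inpp5d (0.11 ± 0.20), the phospholipase gene Plcg2 (-0.19 ± 0.27) and the transcription factor genes Spi1 (0.45 ± 0.43) and Mef2c (-0.16 ± 0.18). Whether the share called differs between the lists was not tested.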

How the data were processed

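Per the labels, RNA came from Cd11b-positive brain cells of 12 samples. GSNAP and GRCm38 are named in the submitters' processing notes; aligner version, counting tool, annotation and strandedness are not given in the sources. Per the file headers, the deposited count is the number of reads aligning uniquely to a gene model, and the deposited RPKM were adjusted by the authors with a size factor per sample. The RPKM equalled the count times a gene and a library constant (largest relative deviation 5.33e-15 over 9468 genes), so both carry 1 measurement. Symbols came from RefSeq GRCm38.p6 by Entrez number (31049 of 36528 matched, 85.0%). Numbers without a symbol took 1.56% to 3.15% of counts and were kept. Genotype labels gave the groups; replicate numbers follow record order and imply no pairing. No library repeated another: over the 30 within-group pairs, chi-square per degree of freedom was at least 18.2.

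Genes were filtered by filterByExpr (minimum count 10; 10022 kept), scaled by TMM and tested with edgeR 4.0.16 (R 4.3.3, quasi-likelihood, robust, no covariate; Benjamini-Hochberg over all genes tested, threshold 0.05). The SE is the log2 fold change over the square root of F. The biological coefficient of variation over all genes was 0.64. Alternatives were DESeq2 1.42.0, limma 3.58.1 (voom, and log2 RPKM with pseudocounts 1 and 0.1), other scalings and filters, and omission of each library. Named partner genes were up to 4 per list with the smallest p, and any that passed. Gfap, Flt1, Pecam1, Kdr, Trem2, Cr1l, Inpp5d, Plcg2, Spi1, Mef2c and the family relatives fall outside that rule and were named after their values were seen. Members and lists were chosen with earlier results of these data known. The 14 marker lists also held border macrophages, monocytes, neutrophils, T, natural killer and B cells, neurons, oligodendrocyte precursors and mural cells. The labels name no molecular identifiers, so intervals and floors from reads cover counting error only. Promoter entries were read for 7 of the 10 genes. Entries on chromosome 18, where Bin1 lies, were left out by rule.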

Additional observations from a re-analysis of the deposited data

Results flagged for a closer look

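In 5 of 54 groups of 6 libraries checked, 1 library lay far from the others, with a gap to its neighbour of more than 0.625 of the range; chance gives such a gap in about 1 of 20 groups. For Cass4 this was NonTg 4 at the high end (log2 CPM 5.92) and P301S 2 at the low end (0.44, from 2 reads). NonTg 4 was also the lowest NonTg library for Abi3 (log2 CPM 8.59), and NonTg 5 was low for Ptk2b (4.45). The summed oligodendrocyte markers were high in P301S 4 (503 CPM). The cause was not tested.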

How the results depend on the processing

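No edgeR or limma setting called any of the 9 tested genes, and DESeq2 called 1 lower, Cass4. Signs held in all 21 alternatives for 8 of the 9; on omission of single libraries the log2 fold change of Abi3 ranged from -0.187 to 0.0382 (above 0 without P301S 4, and 0.0022 without NonTg 6) and that of the partner gene Cbl from -0.0983, without P301S 2, to 0.252. Over all genes, 238 higher and 150 lower calls became 405 and 337 with DESeq2 and 411 and 652 with no filter on low counts, which tests more genes. Omitting single libraries gave 182 to 242 higher and 91 to 169 lower, the lowest without P301S 1 (91) and P301S 6 (96). Partner genes called higher, 1 in the fit reported, were 6 with DESeq2, 2 with voom, 2 with log2 RPKM plus 0.1, 3 with no filter and 1 to 3 on omission of single libraries; those called lower were 1 to 2. Ordered by median RPKM, 2 genes exchanged places in NonTg (Cass4 and Sorl1) and none in P301S. Summed marker levels moved by less than 1 SD under the other scalings. No paired analysis was possible because the labels give no replicate numbers. Depth limits Fermt2, Cass4, Abca7 and Sorl1, whose lowest libraries held 0, 2, 9 and 11 reads. Other causes were not tested.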

Other observations

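Markers of other blood cells were sparse in the sort. The T cell list summed to at most 24.3 CPM, the natural killer list to at most 21.9 (with no read of Gzma, Eomes or Nkg7 in any library) and the B cell list to at most 24.2 in NonTg, and each was lower than that at its highest in P301S. No listed gene matched Trbc2 of the T cell list or Ighm of the B cell list, so those sums rest on 7 and 5 markers. The neutrophil list summed to 481 to 786 CPM in NonTg and 735 to 1018 in P301S, but Csf3r alone gave means of 601 and 837 CPM, while S100a8 averaged 3.38 and 1.66 CPM. Border macrophage markers summed to 147 to 338 CPM in NonTg and 117 to 227 in P301S, mostly Stab1 (198 and 137 CPM), with 9 reads of Lyve1 and 6 of Pf4 in all. Monocyte markers summed to 31.4 to 350 and 27.3 to 99.7 CPM, with 1 read of Ly6c2 and 3 of Plac8 in all. Fn1 alone measured up to 285 CPM in NonTg and up to 29.6 in P301S. Neuronal markers summed to 72.2 to 172 and 25.6 to 155 CPM, precursor markers of oligodendrocytes to 17.1 to 50.3 and 11.7 to 45.0 CPM, and mural markers to 5.48 to 23.2 and 0.542 to 11.1 CPM.

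Among the relatives of Sorl1, the receptor genes Sorcs1, Sorcs2 and Sorcs3, which neurons are known to use, did not pass the filter. Sorcs3 ranged from 0.0155 to 2.99 RPKM in NonTg and from 0 to 0.0648 in P301S. Each of the 3 was above Sorl1 in 1 of 12 libraries.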
